A study of Cannabis sativa with 12 samples.

Results

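The cellulose synthase-like (CSL) family of the hemp hypocotyl is described here over 4 ages of the seedling. The members are the 10 contigs, of 3622 in the table analysed, whose Arabidopsis annotation names a CSL protein, a contig being a transcript sequence assembled from the reads. They carry 5 gene names, namely CSLC4 (contig 3000), CSLA9 (contigs 6053 and 2357), CSLD3 (contig 449), CSLD5 (contigs 11283 and 5568) and CSLE1 (contigs 3813, 3812, 7777 and 1306). The RNA was taken from whole hypocotyls of Cannabis sativa cv. Santhica 27, a fibre hemp, on day 6 (H6), day 9 (H9), day 15 (H15) or day 20 (H20) from sowing. Each time point had 3 libraries made from separate pools, with 20 hypocotyls in each, and the 12 pools formed a single experimental batch. The plants were kept at 25 °C during 16 h of light and at 20 °C during the 8 h of darkness. No mutant and no treatment entered the comparison, so that age is the only factor given by the labels.

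The hypocotyl first elongates and then thickens, when a cambium forms xylem and phloem and the bast fibres deposit thick secondary walls. CSL proteins are relatives of the cellulose synthases, and some of them make the backbones of other beta-linked wall polysaccharides. In Arabidopsis, CSLC4 makes the glucan backbone of xyloglucan, the main hemicellulose of growing primary walls. CSLA9 makes the mannan and glucomannan backbone in the Golgi. The CSLD proteins act where new wall is laid down quickly, CSLD3 at the tip of root hairs and CSLD5 at the cell plate of dividing cells. The CSLE class has no well established product.

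Mapped reads, as implied by the deposited values, ranged from 13413472 to 25855413 per library, and 6672 to 20180 of them lay on the CSL contigs. All 3622 contigs had been selected by the study for a change among these same libraries. From 41.4% (H20 against H15) to 93.5% (H20 against H6) of them passed the test at an adjusted p under 0.05, depending on the comparison. The shares of all contigs called are therefore given beside the counts of CSL contigs. Within H6, pool 3 stood apart from pools 1 and 2 in several gene groups. The summed level of 7 contigs for cellulose synthesis was 194 RPKM (reads per kilobase of contig, scaled to the mapped reads of the library) in pool 3 against 329 and 370 RPKM in pools 1 and 2. That of 6 contigs named SEOR1, a sieve element protein, was 158 against 347 and 365 RPKM. In H9, pool 2 was the lowest for the same contigs, with 814 against 1127 and 1262 RPKM for cellulose synthesis and 272 against 418 and 562 RPKM for SEOR1. Values without these pools are given where they change a result. The contig numbers are those of the deposited table, where RPKM recomputed from the reads and the contig length was within 0.01 of the listed value for 115 of the 120 values of the CSL contigs. The other 5, on CSLE1 contigs 3813 and 3812, were listed up to 0.859% above the recomputed value. One of the study's supplementary listings sets a different contig number of CSLE1 and of CSLA9 beside a change, and it was not used.

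CSLC4, the xyloglucan glucan synthase, fell at every step of the series. Contig 3000 stood at 60.95, 58.92 and 77.07 RPKM in the 3 pools of H6, at 17.86, 14.98 and 15.58 RPKM in H9, at 5.47, 4.84 and 4.97 RPKM in H15 and at 2.87, 3.60 and 4.44 RPKM in H20. The pools of the 4 time points did not overlap, and the mean fell from 65.6 ± 9.94 RPKM (SD, n = 3) in H6 to 3.64 ± 0.786 RPKM in H20, an 18.1-fold decrease. The log2 fold change of H20 against H6 was -4.08 (standard error 0.17, edgeR quasi-likelihood test, adjusted p = 7.46e-10). Adjusted values from edgeR are corrected by the Benjamini-Hochberg method over all 3622 contigs. Of the 3622 contigs, 67 had a more negative change. The step from H6 to H9 was -2.04 (edgeR adjusted p = 3.05e-07) and that from H9 to H15 -1.52 (edgeR adjusted p = 2.28e-06). The last step, from H15 to H20, was small at -0.51 (edgeR adjusted p = 0.0220) and its call was lost when H15 pool 1, H20 pool 1 or H20 pool 2 was left out (edgeR adjusted p = 0.0707, 0.10 and 0.0591). In a bulk sample of whole hypocotyls, fewer cells of a type and less RNA per cell cannot be told apart.

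Of 17 genes listed for the synthesis and trimming of xyloglucan, 2 matched a contig, and both act in trimming the side chains of the polymer in the wall. BGAL10, a beta-galactosidase, fell along with CSLC4 from 99.0 ± 13.6 RPKM (SD, n = 3) in H6 to 50.2 ± 8.89 in H9 and 32.4 ± 3.71 in H20, with a log2 fold change of H20 against H6 of -1.51 (standard error 0.15, edgeR adjusted p = 7.23e-07). XYL1, an alpha-xylosidase, took another course. Its mean was 66.4 RPKM in H6 and 28.5 RPKM in H9, and then 52.6 RPKM at H15 and 64.4 RPKM at H20. It fell from H6 to H9 by 1.23 on the log2 scale (edgeR adjusted p = 1.71e-06) and rose again by H15, so that H20 against H6 gave 0.06 (standard error 0.12, edgeR adjusted p = 0.644). One marker of the epidermis out of 4 listed matched a contig, FDH, a fatty acid elongase of the cuticle. The H6 and H9 pools had 35.5 to 50.9 and 42.9 to 51.7 RPKM of FDH, those of H15 had 4.04 to 10.1 RPKM and those of H20 2.08 to 3.53 RPKM, and its part in the decrease of CSLC4 was not tested.

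**Figure D1:**
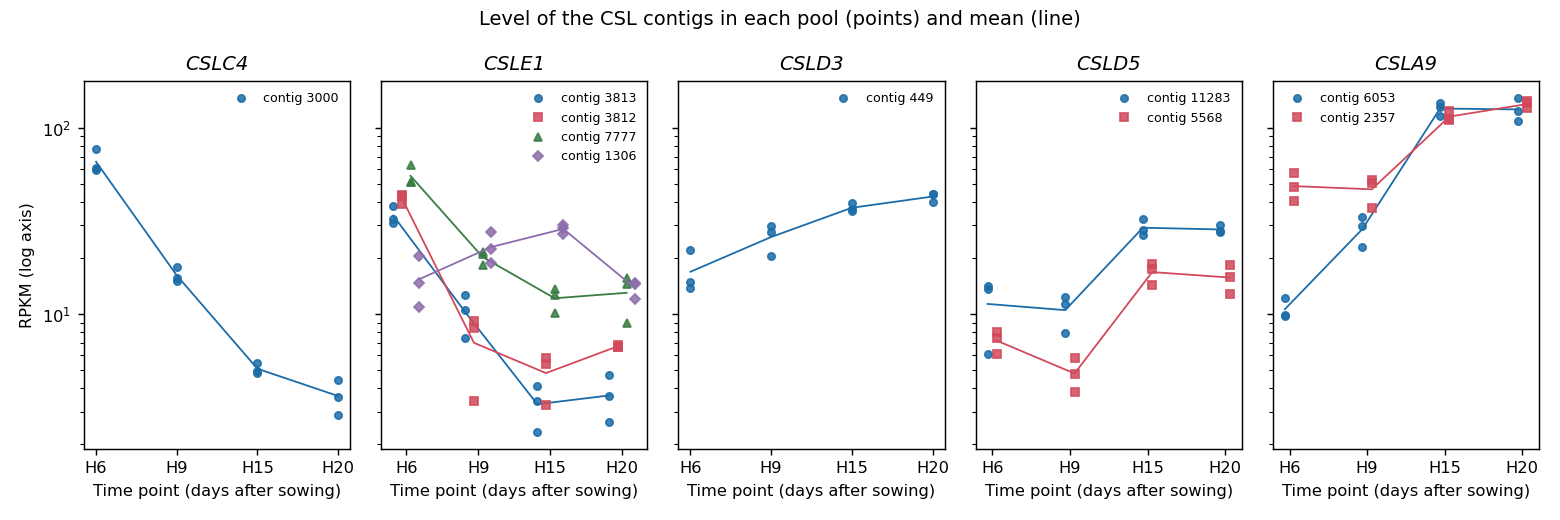
RPKM of the 10 CSL contigs (log axis) in each of the 3 pools (points) of H6, H9, H15 and H20, with a line through the means, in 1 panel per gene name. CSLC4 and 3 of the 4 CSLE1 contigs were highest in H6, while CSLD3, CSLD5 and CSLA9 were highest in H15 or H20.

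CSLA9, the mannan synthase, rose with age. In H15 and H20 it was the most abundant of the 5 CSL gene names in the table. A CSL contig that did not pass the study's selection would be absent from the table. Contig 6053 stood at 12.19, 9.95 and 9.72 RPKM in the pools of H6, at 29.63, 22.90 and 33.30 RPKM in H9, at 136.00, 128.62 and 115.23 RPKM in H15 and at 144.61, 107.96 and 123.09 RPKM in H20. Each time point up to H15 lay above the one before it without overlap, whereas the pools of H15 and H20 overlapped. The mean was 11.8-fold higher in H20 than in H6, with a log2 fold change of 3.66 (standard error 0.18, edgeR adjusted p = 2.00e-09), and 107 of the 3622 contigs had a higher one. The rise came in both early steps, with log2 fold changes of 1.42 from H6 to H9 (edgeR adjusted p = 9.70e-06) and 2.28 from H9 to H15 (edgeR adjusted p = 1.93e-07). From H15 to H20 the log2 fold change was -0.04 (standard error 0.16, edgeR adjusted p = 0.860).

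The other CSLA9 contig, 2357, started from a higher level. It was at 48.21, 57.07 and 40.44 RPKM in H6, at 52.59, 37.09 and 50.34 RPKM in H9, at 111.13, 123.00 and 109.48 RPKM in H15 and at 134.70, 138.69 and 128.00 RPKM in H20. The pools of H6 and H9 overlapped, and the log2 fold change between them was -0.07 (standard error 0.15, edgeR adjusted p = 0.695). Contig 2357 rose from H9 to H15 by 1.43 on the log2 scale (standard error 0.15, edgeR adjusted p = 3.00e-06). In H20 its pools lay above those of H15, with a log2 fold change of 0.20 that did not pass the test (edgeR adjusted p = 0.315).

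The 2 CSLA9 contigs thus changed their proportion. In H6 the reads on contig 6053 were fewer than those on contig 2357, with a mean log2 ratio of -1.79 ± 0.29 (SD, n = 3). The log2 ratio was -0.31 ± 0.12 in H9, 0.54 ± 0.13 in H15 and 0.29 ± 0.24 in H20. Its change over the time points passed the exact permutation test on the 12 libraries (p = 1.95e-04, 7.79e-04 after adjustment over 8 pairs of contigs that share a name). A ratio within a library does not depend on the scaling of the libraries. Both contigs had been selected by the study for a change among these libraries. The share of other pairs of contigs that would pass was not computed. Contig 6053 is 2012 bases long and contig 2357 has 1531 bases, and whether they are copies of the gene or parts of its transcripts was not tested.

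Most of the matched genes that supply or modify mannan were also higher in the older hypocotyl, with an exception. Listed genes without a match are not in the selected table, and their course is not known here. Of 27 listed genes, 6 matched a contig, with 5 of them higher and 1 lower at H20 than at H6, against 40.8% and 52.8% of all contigs. Their median log2 fold change was 1.26, and that of all contigs -0.58. From H6 to H9, the step in which CSLA9 contig 6053 but not contig 2357 rose, 2 of the 6 were higher, 1 was lower and 3 did not pass the test, against 37.9% higher and 36.8% lower among all contigs. From H9 to H15 all 6 were higher, against 38.3% of all contigs. TBL23, of a family of polysaccharide O-acetyltransferases, rose from 7.81 ± 0.255 RPKM (SD, n = 3) at H6 to 32.0 ± 2.90 RPKM at H20 (change of 2.14 on the log2 scale, edgeR adjusted p = 4.10e-09). MAN2, an endo-beta-mannanase, which cuts the polymer, was at 33.9 ± 5.10 RPKM in H6, peaked at 147.5 ± 15.5 RPKM in H15 and was at 110.7 ± 10.7 RPKM in H20. For MAN2 the log2 fold change of H20 against H6 was 1.81 (edgeR adjusted p = 1.56e-07). PMM and VTC1 act in the synthesis of GDP-mannose, the donor of the mannan backbone. They had log2 fold changes of 1.29 and 1.23 for H20 against H6 (edgeR adjusted p = 1.59e-07 and 5.86e-08). GDP-mannose also serves ascorbate synthesis. MSR1, which supports mannan synthesis in Arabidopsis, was the fifth, at 118.7 RPKM in H6 and 259.5 RPKM in H20. MUCI10, a galactosyltransferase of seed galactoglucomannan, was lower in H20 than in H6 (log2 fold change -0.37, edgeR adjusted p = 0.0299). MSR1 and MUCI10 were named after their values were seen, to complete the count.

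The cellulose synthases of the secondary wall, CESA4, CESA7 and CESA8, rose over the same days and to higher levels. CESA7 was at 19.6 ± 10.3 RPKM (SD, n = 3) in H6, and it reached 93.5 ± 24.1, 344.6 ± 27.7 and 402.4 ± 49.5 RPKM at the later time points, and CESA8 at 20.7 ± 8.88, 81.7 ± 18.7, 330.1 ± 23.3 and 404.9 ± 67.5 RPKM. The log2 fold changes of H20 against H6 were 4.47 for CESA7 and 4.40 for CESA8 (edgeR adjusted p = 1.99e-07 and 4.59e-08). The CESA4 contigs 804 and 812 had 3.79 and 3.85 (edgeR adjusted p = 7.86e-09 and 7.69e-08). CTL2, a chitinase-like protein of the secondary wall, had 4.49 (edgeR adjusted p = 6.45e-09). Of 16 listed genes of cellulose synthesis, 6 matched 7 contigs, every one of which rose between H6 and H20, against 40.8% of all contigs.

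The 7 matched secondary wall transcription factors, of 14 listed, all rose as well between H6 and H20, with a median log2 fold change of 2.62 where that of all contigs was -0.58 and 40.8% of them rose. MYB46, a master regulator that binds the CSLA9 promoter in Arabidopsis, rose from 1.77 ± 0.462 RPKM (SD, n = 3) in H6 to 5.71 ± 1.48 in H9 and 19.3 ± 1.24 in H15, and was at 17.3 ± 1.03 RPKM in H20. XND1, SND2 and NST1 had log2 fold changes of H20 against H6 of 4.64, 2.77 and 2.62 (edgeR adjusted p = 2.50e-09, 5.00e-09 and 1.12e-06). XND1 is known in Arabidopsis for holding back secondary wall formation, whereas SND2 and NST1 promote it. In H20 against H15, 0 of these 7 and 0 of the 7 cellulose contigs passed the edgeR test, against 41.4% of all contigs, and neither did the CSLA9 contigs. Markers of other tissues also moved over these days. The summed level of 2 cambium markers out of 4 listed, PXY and WOX4, went from 56.3 to 77.3 RPKM in the pools of H6 and 108.9 to 122.9 RPKM at H9 up to 138.9 to 177.0 RPKM at H15 and 135.6 to 160.5 RPKM at H20. The 6 SEOR1 contigs, the only match among 4 sieve element and companion cell genes listed, summed to 158 to 365 RPKM at H6 and 272 to 562 RPKM at H9, then to 388 to 419 RPKM at H15 and 667 to 758 RPKM at H20. Of 5 vessel markers 3 matched (MC9, BFN1 and RNS3), with a sum of 67.1 to 72.3 RPKM at H6 and 49.8 to 78.1 RPKM at H9, then of 18.2 to 50.1 RPKM at H15 and 33.3 to 41.6 RPKM at H20. These 3 did not move together. From H6 to H9 BFN1 fell (log2 fold change -1.37, edgeR adjusted p = 1.15e-04) and RNS3 rose (1.56, edgeR adjusted p = 0.0146). MC9 did not pass the test in that step (-0.35, edgeR adjusted p = 0.338). Every contig of the table had at least 11 reads in each library, so that a matched marker could not be at 0. The presence of a marker therefore does not show which tissues a pool held. The part of these tissues in the rise of CSLA9 was not tested.

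**Figure D2:**
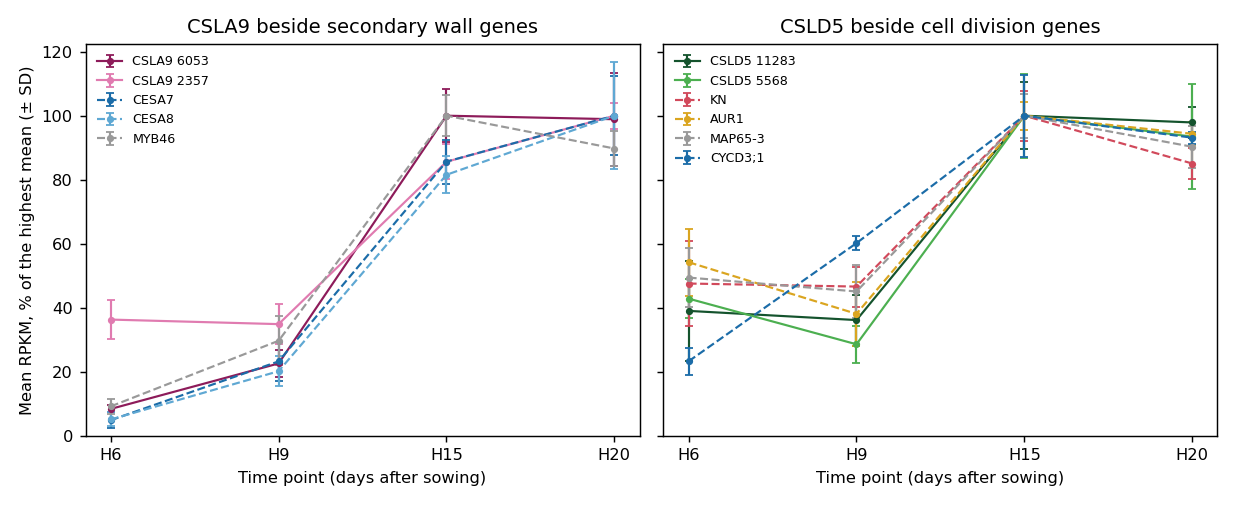
Mean RPKM as a percentage of the highest mean of each contig (± SD, n = 3 pools) at H6, H9, H15 and H20, for the CSLA9 contigs with CESA7, CESA8 and MYB46 (left) and the CSLD5 contigs with KN, AUR1, MAP65-3 and CYCD3;1 (right). From H6 to H9 CSLA9 contig 2357 had a log2 fold change of -0.07 while contig 6053 rose by 1.42 on the log2 scale, and both CSLD5 contigs stayed low until H9 and were high in H15 and H20, whereas CYCD3;1 rose by 1.36 on the log2 scale from H6 to H9.

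CSLD3 rose gradually. Contig 449, with 4392 bases the longest of the 10, was at 22.03, 14.82 and 13.75 RPKM in the pools of H6, at 27.53, 20.51 and 29.66 RPKM in H9, at 36.40, 35.81 and 39.31 RPKM in H15 and at 43.95, 39.93 and 44.21 RPKM in H20. The pools of H6 and H9 overlapped, and the later ones lay above them in the order of age. The mean was 2.53-fold higher in H20 than in H6, with a log2 fold change of 1.44 (standard error 0.18, edgeR adjusted p = 5.93e-06). The steps were 0.61 from H6 to H9 (edgeR adjusted p = 0.00813), 0.66 from H9 to H15 (edgeR adjusted p = 0.00448) and 0.17 from H15 to H20 (edgeR adjusted p = 0.458). Of 4 root hair markers listed, 0 matched a contig analysed here. As the table holds only contigs selected for change, this does not show whether these markers were expressed.

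CSLD5 stayed low until H9 and rose between H9 and H15. Besides its part in dividing cells of Arabidopsis, the paper counts CSLD5 among the transcripts of xylan synthesis that were higher in H20. Contig 11283 was at 14.20, 13.67 and 6.14 RPKM in the pools of H6, at 11.28, 7.90 and 12.33 RPKM in H9, at 26.50, 28.23 and 32.43 RPKM in H15 and at 30.07, 27.50 and 27.75 RPKM in H20. The pools of H6 and H9 overlapped, as did those of H15 and H20, with no overlap between these early and late time points. The low value in H6 belongs to pool 3, the pool that was also lowest for cellulose synthesis. From H9 to H15 contig 11283 rose by 1.60 on the log2 scale (standard error 0.26, edgeR adjusted p = 9.77e-05). Its log2 fold change of H20 against H6 was 1.43 (edgeR adjusted p = 1.55e-04), and 1.13 without H6 pool 3 (edgeR adjusted p = 7.00e-05). The shorter contig 5568 had 39 to 70 reads per library in H6 and H9 and between 134 and 237 in H15 and H20. It was at 6.09, 7.46 and 8.05 RPKM in H6, at 4.80, 3.83 and 5.78 RPKM in H9, at 18.63, 17.43 and 14.35 RPKM in H15 and at 15.88, 18.37 and 12.86 RPKM in H20. It rose from H9 to H15 by 1.94 on the log2 scale (standard error 0.22, edgeR adjusted p = 5.35e-06). Before that it had a log2 fold change of -0.60 from H6 to H9 (edgeR adjusted p = 0.0320). That call was lost with DESeq2 (adjusted p = 0.202) and when H6 pool 2, H6 pool 3, H9 pool 1 or H9 pool 2 was left out (edgeR adjusted p = 0.0695, 0.102, 0.0715 and 0.118). The mean log2 ratio of the reads on contigs 11283 and 5568 was 3.24 ± 0.85, 3.80 ± 0.10, 3.47 ± 0.34 and 3.54 ± 0.27 (SD, n = 3) in H6, H9, H15 and H20, and no change was detected by the exact permutation test (p = 0.641).

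The matched genes of cell division and the cell plate also rose between H9 and H15. Of 26 listed genes 7 matched a contig, and all 7 rose from H9 to H15, against 38.3% of all contigs, with a median log2 fold change of 1.29 where that of all contigs was -0.12. KN, the syntaxin of the cell plate, was at 35.8 ± 10.0 RPKM (SD, n = 3) in H6 and 35.1 ± 4.72 RPKM in H9, against 75.4 ± 5.91 RPKM at H15 and 64.1 ± 3.60 RPKM at H20. MAP65-3, which holds the phragmoplast microtubules together, and AUR1, a mitotic kinase, rose from H9 to H15 by 1.29 and 1.53 on the log2 scale (edgeR adjusted p = 1.13e-05 and 1.00e-05). From H6 to H9, 4 of the 7 fell, against 36.8% of all contigs, and 1 rose, against 37.9%, the D-type cyclin CYCD3;1 (log2 fold change 1.36, edgeR adjusted p = 3.76e-06). In H20 against H6 all 7 were higher, against 40.8% of all contigs, with a median of 0.90. Between H15 and H20, 0 of 7 passed the edgeR test, against 41.4% of all contigs. Within H6, pool 3 had the lowest summed level of the 7 contigs, 101.8 RPKM against 133.6 and 154.5 RPKM. The rise from H9 to H15 was not particular to cell division genes. Of the 7 matched secondary wall transcription factors 6 rose in that step, against 38.3% of all contigs, with a median log2 fold change of 1.30. The relation of CSLD5 to either group was not tested.

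CSLE1 held 4 contigs, of which 3 fell early and 1 did not. Contig 3813 was at 32.53, 37.89 and 30.89 RPKM in the pools of H6, at 7.47, 12.68 and 10.58 RPKM in H9, at 4.10, 3.43 and 2.33 RPKM in H15 and at 2.63, 4.74 and 3.62 RPKM in H20. It fell without overlap from H6 to H9 and from H9 to H15, with log2 fold changes of -1.73 and -1.51 (edgeR adjusted p = 4.01e-05 and 1.45e-04). The mean was 9.22-fold lower in H20 than in H6 (-3.11 on the log2 scale, standard error 0.26, edgeR adjusted p = 1.53e-07).

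Contig 3812 was at 43.54, 38.88 and 43.21 RPKM in H6, at 8.42, 9.20 and 3.43 RPKM in H9, at 5.43, 3.26 and 5.79 RPKM in H15 and at 6.83, 6.66 and 6.70 RPKM in H20. Its decrease lay between H6 and H9, with a log2 fold change of -2.60 (standard error 0.29, edgeR adjusted p = 5.70e-06), and 74 of the 3622 contigs had a more negative change in that step. From H9 to H15 it had a log2 fold change of -0.41 (edgeR adjusted p = 0.210), which was -0.72 and passed the test without H9 pool 3 (edgeR adjusted p = 0.00650). The 330-base contig 7777 was at 50.83, 63.42 and 51.17 RPKM in H6, at 21.01, 21.47 and 18.27 RPKM in H9, at 13.68, 10.08 and 12.73 RPKM in H15 and at 8.97, 14.46 and 15.60 RPKM in H20. It fell from H6 to H9 by 1.46 on the log2 scale (edgeR adjusted p = 3.41e-05). From H9 to H15 it had a log2 fold change of -0.60 (edgeR adjusted p = 0.0182), a call that was lost without H15 pool 2 (edgeR adjusted p = 0.0715). For none of the contigs 3813, 3812 and 7777 did the step from H15 to H20 pass the edgeR test (adjusted p = 0.726, 0.214 and 0.817).

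Contig 1306 behaved otherwise, with its highest mean in H15. It was at 10.92, 14.62 and 20.60 RPKM in H6, at 22.21, 27.60 and 18.85 RPKM in H9, at 28.87, 30.08 and 26.95 RPKM in H15 and at 14.66, 12.07 and 14.52 RPKM in H20. Neighbouring levels in this order overlapped, but H15 and H20 did not. It fell from H15 to H20 by 1.08 on the log2 scale (standard error 0.21, edgeR adjusted p = 0.00118), and its H20 level gave a log2 fold change of -0.06 against H6 (standard error 0.21, edgeR adjusted p = 0.772). Without H6 pool 3, the highest of that time point, the value against H6 was 0.21 (edgeR adjusted p = 0.270). The steps up were 0.55 from H6 to H9 (edgeR adjusted p = 0.0268) and 0.47 from H9 to H15 (edgeR adjusted p = 0.0483). The first was not called without H6 pool 1, H6 pool 2 or H9 pool 2 (edgeR adjusted p = 0.102, 0.0743 and 0.115), and the second was lost in 9 of the 12 fits that left out a pool, with an adjusted p of up to 0.161.

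The reads on contigs 3813, 3812 and 7777 relative to those on contig 1306 changed over time. The mean log2 ratio of contig 3813 to contig 1306 was 1.41 ± 0.52 (SD, n = 3) in H6 and -0.94 ± 0.38 in H9, followed by -2.93 ± 0.36 at H15 and -1.71 ± 0.57 at H20. The exact permutation test gave p = 1.30e-04 for this pair, 3.25e-04 for contigs 3812 and 1306 and 6.49e-04 for contigs 7777 and 1306 (7.79e-04, 8.66e-04 and 0.00130 after adjustment over the 8 pairs). Among the 3 contigs that fell, the ratio of 3813 to 7777 also changed, from 1.73 ± 0.05 in H6 to 0.61 ± 0.25 in H20 on the log2 scale (exact permutation test, adjusted p = 0.0120). For 3812 and 7777 the exact permutation test gave an adjusted p of 0.0324, and its call was lost without H6 pool 1, H6 pool 3, H15 pool 1 or H20 pool 2 (exact p adjusted 0.101, 0.0984, 0.0646 and 0.0538). For 3813 and 3812 it gave 0.0627, and 0.0175, 0.0467 and 0.0449 without H9 pool 1, H15 pool 2 or H15 pool 3. The exact test on 12 libraries cannot give a p below 6.49e-05. As for CSLA9, the contigs of these pairs had been selected for a change among the same libraries, and no share of other pairs was computed.

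**Figure D3:**
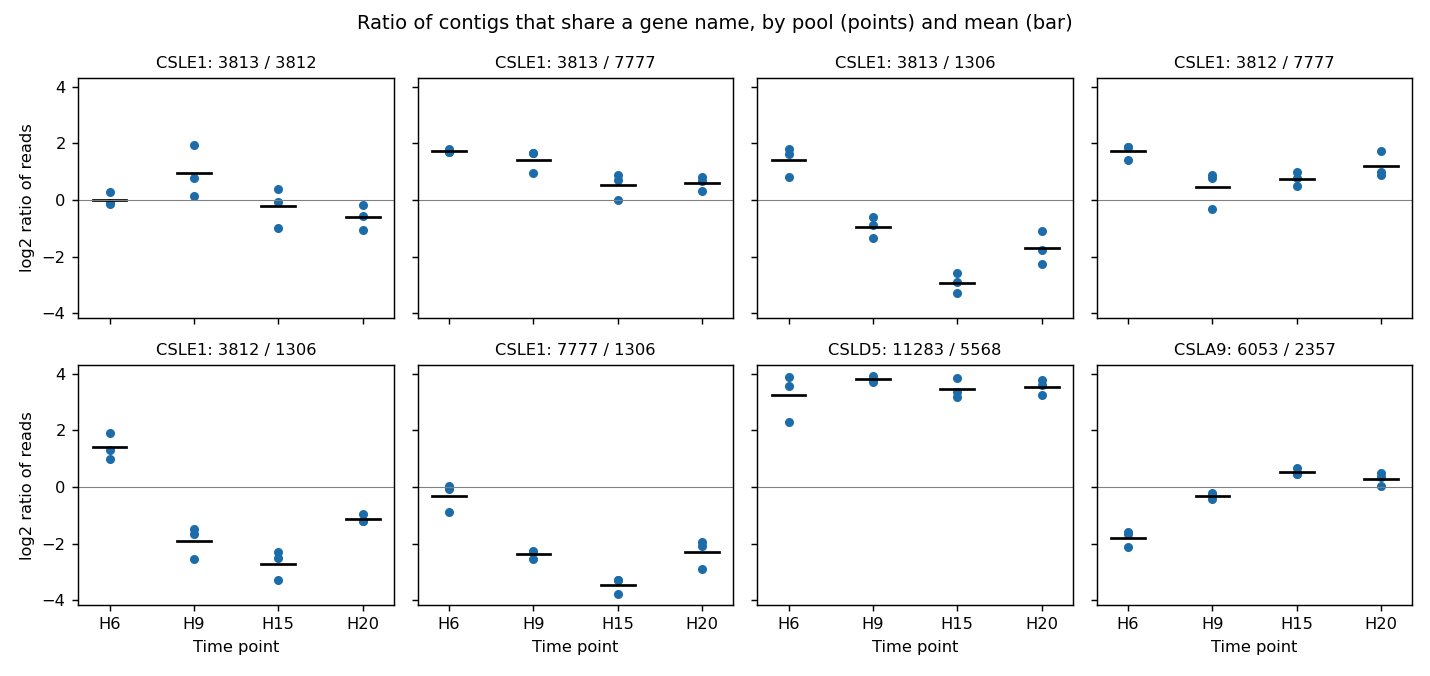
Log2 ratio of the reads on contigs that carry the same gene name, in each pool (points) with the mean (bar), at H6, H9, H15 and H20. The ratios to CSLE1 contig 1306 dropped from H6 to H15, that of the CSLA9 contigs rose from -1.79 to 0.54, and that of the CSLD5 contigs had means between 3.24 and 3.80.

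Over the 10 contigs, 9 passed the edgeR test in H20 against H6, 5 higher and 4 lower, where 93.5% of all contigs passed, 40.8% higher and 52.8% lower. All 9 changed more than 2-fold, against 71.6% of all contigs. In H9 against H6, 8 of 10 passed, 3 higher and 5 lower, against 74.7% of all contigs (37.9% higher and 36.8% lower, and 7 of 10 without H6 pool 3 or 6 without H9 pool 2), and 5 of them changed more than 2-fold, against 36.0%. In H15 against H9, 9 of 10 passed, 6 higher and 3 lower, against 79.6% (38.3% higher and 41.3% lower), and 6 changed more than 2-fold, against 43.5%. In H20 against H15, 2 of 10 passed, both lower (CSLC4 and CSLE1 contig 1306), against 41.4% (17.0% higher and 24.4% lower), and 1 changed more than 2-fold, against 13.6%. Without H15 pool 1, H20 pool 1 or H20 pool 2 the first of these counts was 1, and without H20 pool 2 the second was 0. The pools of the compared time points did not overlap for 9, 6, 8 and 5 of the 10 contigs in these comparisons, against 93.4%, 74.6%, 83.1% and 57.5% of all contigs. Whether the CSL contigs differ from the others in these shares was not tested.

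**Figure D4:**
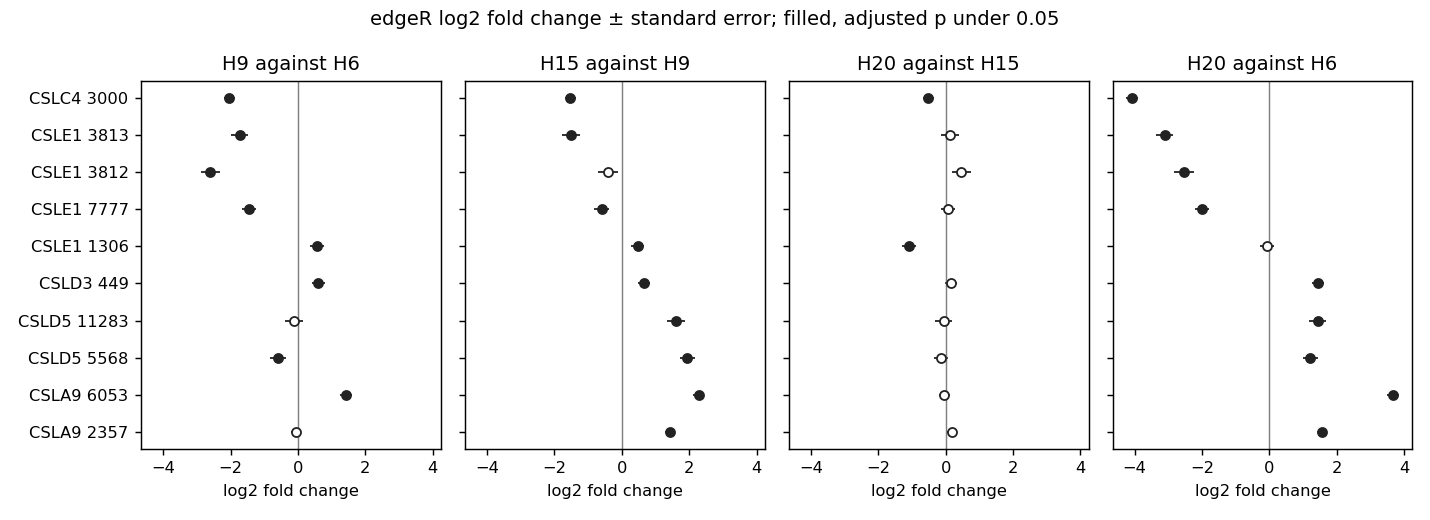
Log2 fold change of the 10 CSL contigs between successive time points and over the whole series (H20 against H6), with the standard error from the edgeR fit. Filled points have an adjusted p under 0.05. Between H15 and H20, 2 points are filled (-0.51 for CSLC4 and -1.08 for CSLE1 contig 1306).

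The makeup of the reads on the 10 CSL contigs of the table shifted from CSLC4 and CSLE1 to CSLA9. The 10 contigs together took 544 ± 13.1 RPM (reads scaled to the mapped total of a library, as in RPKM, but not to length, SD, n = 3) in H6. They took 392 ± 40.8 RPM in H9, 773 ± 12.3 RPM in H15 and 799 ± 45.0 RPM in H20. The share of CSLC4 in these reads was 31.5 ± 5.39% in H6 and 10.8 ± 0.898% in H9, then 1.72 ± 0.106% at H15 and 1.19 ± 0.291% at H20. CSLE1 held 29.7 ± 1.92% in H6 and 5.18 ± 0.435% in H20. The share of CSLA9 was 17.6 ± 2.26% in H6 and 32.7 ± 2.54% in H9, then 55.6 ± 2.58% at H15 and 57.2 ± 1.42% at H20. CSLD3 had its largest share in H9, with 28.8 ± 2.56%, and 13.6 ± 3.28% in H6. CSLD5 went from 7.66 ± 2.59% in H6 to 13.0 ± 0.435% in H20. These shares count reads, so that a long contig weighs more. As shares of the summed RPKM, which is per length, CSLE1 with its 4 contigs came before CSLC4 in H6, with 47.7 ± 1.72% against 21.5 ± 3.66%, and CSLD3 held 5.52 ± 1.55%. On that scale CSLE1 and CSLC4 were at 9.64 ± 1.30% and 0.946 ± 0.229% in H20, and CSLA9 went from 19.3 ± 2.34% in H6 to 66.9 ± 1.73% in H20.

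**Figure D5:**
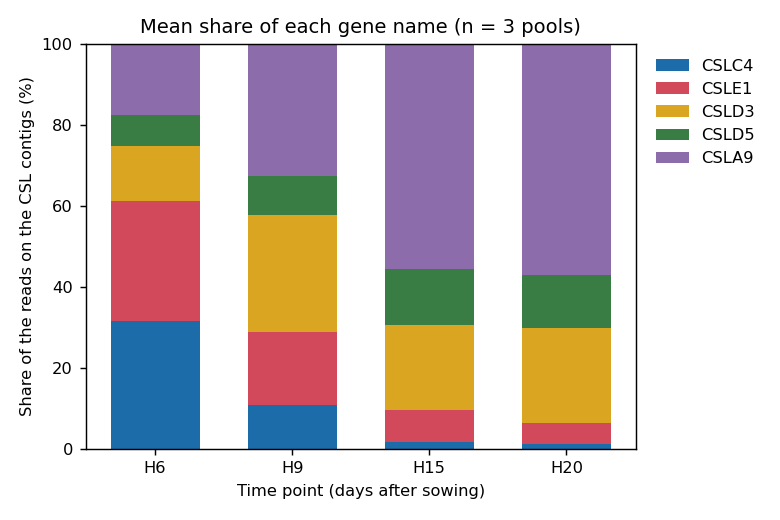
Mean share (n = 3 pools) of each gene name in the reads on the 10 CSL contigs at H6, H9, H15 and H20, in percent. CSLC4 dropped from 31.5% to 1.19% and CSLA9 grew from 17.6% to 57.2%.

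For each contig, the annotated contigs with the most similar profile were found by Pearson's r of log2(RPKM + 1) over the 12 libraries, which is a description and in which the points share their time points and libraries. Pearson's r does not measure the size of a change, which could be smaller or larger in the neighbour than in the CSL contig. CSLC4 was closest to a phosphoglycerate mutase (AT3G50520, r = 0.996) and an ACT domain protein (AT1G16880, r = 0.994). Their log2 fold changes of H20 against H6 were -0.99 and -1.74, against -4.08 for CSLC4. CSLA9 contig 6053 was closest to IBS1, annotated as a cyclin-dependent kinase-like protein (r = 0.997), and to an endomembrane family protein 70 (AT5G35160, r = 0.994). CSLA9 contig 2357 was closest to FH6, a formin (r = 0.992), and to an uncharacterized protein (AT2G25270, r = 0.988). Here the log2 fold change of H20 against H6 was 1.56 for contig 2357, 1.42 for FH6 and 2.64 for AT2G25270. CSLD3 was closest to a trichohyalin like protein (r = 0.981) and to CYP98A3, the p-coumaroyl shikimate hydroxylase of lignin synthesis (r = 0.980). CSLD5 contig 11283 was closest to AT5G60930, a nucleoside triphosphate hydrolase (r = 0.993), and CHR24, a chromatin remodelling protein (r = 0.980). For CSLD5 contig 5568 these were a myosin heavy chain-related protein (AT5G41140, r = 0.975) and an uncharacterized protein (AT5G62580, r = 0.973).

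The CSLE1 contigs had different nearest profiles. Contig 3813 was closest to an uncharacterized protein (AT2G01100, r = 0.993). Contig 3812 was closest to GSTU19, a glutathione transferase (r = 0.988), and TIL, a temperature-induced lipocalin (r = 0.984). Contig 7777 was closest to NUDX14, a nudix hydrolase (r = 0.980), and to CHL, a chloroplastic lipocalin (r = 0.979). For contig 1306 the highest values were lower, 0.915 with WRKY69 and 0.911 with a putative protein kinase.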

How the data were processed

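RNA-Seq libraries of the 12 pools were sequenced by the authors as stranded paired-end reads, whose length differs between the paper and the labels. With the CLC Genomics Workbench, the authors built a de novo assembly and aligned the reads of every library to its contigs. The deposited counts are the authors' unique gene reads per contig and library. The deposited RPKM values are reads scaled to contig length and mapped reads. For 5 of the 120 CSL values, on CSLE1 contigs 3813 and 3812, RPKM was listed above what these counts give. Whether counting used the strand is not given in the sources used here. The table holds the contigs selected by the authors' ANOVA (FDR under 0.05, over 2-fold, over 10 RPKM). The authors' FDR and mean RPKM columns, which hold their own comparison and pooled values, were not used.

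The edgeR package (4.0.16, R 4.3.3) was applied to the counts, in 1 model of the 12 libraries with a mean per time point, library sizes set to the mapped reads implied by RPKM, TMM factors (0.926 to 1.06) and the quasi-likelihood F test, with p adjusted by Benjamini-Hochberg over 3622 contigs and called under 0.05. The biological coefficient of variation was 0.168 on 8 residual degrees of freedom. edgeR gives no standard error, which was taken as the size of the log2 fold change over the root of F. TMM assumes that most contigs do not change, whereas 71.6% changed more than 2-fold from H6 to H20. Alternatives were no TMM factors, DESeq2 1.42.0, limma 3.58.1 on log2(RPKM + 1) or log2(RPKM + 0.1), a filter on low counts, the replicate number as a block, and leaving out each pool. Ratios of contigs that share a name were compared with the exact permutation test of F over all 369600 ways to share the libraries among the time points, which has no sign. Replicate libraries differed by more than counting noise (chi-square per degree of freedom at least 15.3), and p-values measure the spread between pools of one batch.

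The members and gene lists were chosen with earlier results of these data known. Genes named are all CSL contigs, the 2 annotated contigs with the nearest profile to each, up to 4 contigs per list with the largest change of H20 against H6, and the secondary wall cellulose synthases. One nearest profile is not reported here. Lists were matched by the deposited Arabidopsis symbol, locus or description. The contig sequences were not analysed here.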

Additional observations from a re-analysis of the deposited data

How the results depend on the processing

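The number of CSL contigs passing the test stayed at 9 for H20 against H6 in every fit. Leaving out a pool in turn gave 6 to 8 for H9 against H6, 7 to 9 for H15 against H9, 1 to 2 for H20 against H15 and, over 2-fold, 0 to 1 for H20 against H15 (0 without H20 pool 2). The other alternatives kept each count within 1.5 times. DESeq2 moved the median of all contigs by 0.29 for H20 against H6 and 0.23 for H9 against H6, omitting TMM factors moved it by -0.14 and limma by -0.12 and -0.13 for H15 against H9. With DESeq2, 4 log2 fold changes that passed no test changed sign, to 0.23 (CSLE1 contig 1306, H20 against H6), 0.11 (CSLD5 contig 11283, H9 against H6), 0.16 (CSLA9 contig 2357, H9 against H6) and 0.00705 (CSLA9 contig 6053, H20 against H15). Leaving out a pool turned the sign only of values that passed no test, whose ranges were -0.25 to 0.21 for contig 1306 in H20 against H6, -0.41 to 0.0831 for 11283 and -0.18 to 0.0810 for 2357 in H9 against H6, and, in H20 against H15, -0.0915 to 0.32 for 3813, -0.0818 to 0.28 for 7777, -0.13 to 0.0226 for 11283, -0.24 to 0.00494 for 5568 and -0.17 to 0.0593 for 6053. The H15 against H9 call of contig 1306 was also lost without TMM factors (adjusted p = 0.159) and with limma (0.142 and 0.150 with the pseudocounts 1 and 0.1).

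The replicate numbers do not link pools across time points: same-numbered pools correlated in their deviations by -0.28 to 0.26 and others by -0.31 to 0.31. With the replicate block the calls of CSLE1 contig 1306 in H15 against H9 (edgeR adjusted p = 0.0645) and CSLD5 contig 5568 in H9 against H6 (0.0501) were lost and each count of calls stayed within 1.5 times. Within the replicate block the exact permutation test gave an adjusted p of 0.0370 for the ratio of contigs 3813 and 3812 and 0.0516 for 3812 and 7777. Leaving out a pool gave 0.0175 to 0.242 and 0.0228 to 0.101 for these. The contigs with the fewest reads, CSLD5 contig 5568 and CSLE1 contig 7777, had 39 and 67 reads in their lowest library, where counting error is largest.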
